A study of Homo sapiens with 3 samples.

Results

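The genes described here are 10 chemokines that tumour cells can secrete, the CXC chemokines CXCL1, CXCL2, CXCL3, CXCL5, CXCL8, CXCL10 and CXCL16 and the CC chemokines CCL2, CCL5 and CCL20. They were chosen by name, CXCL8 being the gene also called IL8, and were found by Entrez identifier among the 18331 identifiers of the deposited tables. All 10 had at least 1 count in some library. RNA sequencing was done on PC-3, a human cell line grown from a bone metastasis of prostate cancer, collected 7 days after a lentivirus carrying a short hairpin RNA (shRNA) was added. There were 2 libraries labelled KMT2D shRNA, called library 1 and library 2 after the numbers in their titles, and 1 library labelled control shRNA. All 3 thus came from infected cells, and no library of uninfected PC-3 was analysed here. The word retinal stands before the profiles in the description of the design, which also names PC-3 cells. The sample labels, which all give PC-3, were followed. The labels describe the KMT2D shRNA cells as KMT2D deficient and the control cells as KMT2D normal. They do not say whether the 2 numbers stand for different hairpins, nor whether the libraries came from separate cultures. The p-values below measure only the spread between the 2 labelled libraries, pooled across genes, since the control has no replicate.

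Chemokines are small secreted proteins that draw leukocytes along a gradient by binding receptors that couple to G proteins. CXCL1, CXCL2, CXCL3, CXCL5 and CXCL8 carry the residues glutamate, leucine and arginine before their CXC cysteines, bind the receptor CXCR2 (CXCL8 also CXCR1) and attract neutrophils. CXCL10 binds CXCR3 on activated T cells and is induced by interferon. CXCL16 is made as a membrane protein, is shed by ADAM proteases and binds CXCR6. CCL2 attracts monocytes through CCR2, CCL5 attracts T cells and monocytes, and CCL20 attracts cells that carry CCR6. In epithelial tumour cells most of these genes are known targets of NF-kB, the transcription factor of inflammatory signalling, often together with AP-1, and PC-3 is known to secrete CXCL8 constitutively.

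The windows just before the transcription starts are shown because the same short NF-kB-like element stands in genes whose RNA was higher, lower or not called different between the groups. Sequences are from RefSeq on the build GRCh38.p14, a different build from hg19, which the submitters' processing notes name, and cover the 250 bases before the start. Of the 10 genes 7 were matched in the promoter table, and CXCL16, CCL2 and CCL5 were not. The windows printed are chr4:73869143-73869392 on the plus strand for CXCL1, chr4:74099196-74099445 on the minus strand for CXCL2 and chr4:73998678-73998927 on the minus strand for CXCL5. The others are chr4:73740319-73740568 on the plus strand for CXCL8, chr4:76023498-76023747 on the minus strand for CXCL10 and chr2:227813592-227813841 on the plus strand for CCL20. Each is written 5′ to 3′ on the strand of its gene. Capitals mark matches to the letters searched, which were GGANTTTCC and GGAANTTCC for NF-kB (kappaB), TGANTCA for AP-1, TTTC, any 2 bases and TTTC for the interferon-stimulated response element (ISRE) and TATAAA for a TATA box. The first 3 kinds were searched on both strands and the TATA box on the strand of the gene.
CXCL1: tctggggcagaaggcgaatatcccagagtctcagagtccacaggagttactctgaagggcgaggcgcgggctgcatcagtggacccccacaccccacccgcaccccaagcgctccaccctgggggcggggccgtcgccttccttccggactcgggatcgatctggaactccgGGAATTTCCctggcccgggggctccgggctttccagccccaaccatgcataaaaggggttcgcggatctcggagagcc
CXCL2: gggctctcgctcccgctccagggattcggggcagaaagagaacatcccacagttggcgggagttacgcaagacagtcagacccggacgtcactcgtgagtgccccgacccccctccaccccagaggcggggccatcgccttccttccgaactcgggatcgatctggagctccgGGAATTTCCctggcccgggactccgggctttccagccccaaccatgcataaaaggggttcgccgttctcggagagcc
CXCL5: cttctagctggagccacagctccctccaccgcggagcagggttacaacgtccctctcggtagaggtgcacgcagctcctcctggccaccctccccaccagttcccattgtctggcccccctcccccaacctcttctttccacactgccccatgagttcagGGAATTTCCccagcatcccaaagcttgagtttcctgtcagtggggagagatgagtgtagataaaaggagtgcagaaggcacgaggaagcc
CXCL8: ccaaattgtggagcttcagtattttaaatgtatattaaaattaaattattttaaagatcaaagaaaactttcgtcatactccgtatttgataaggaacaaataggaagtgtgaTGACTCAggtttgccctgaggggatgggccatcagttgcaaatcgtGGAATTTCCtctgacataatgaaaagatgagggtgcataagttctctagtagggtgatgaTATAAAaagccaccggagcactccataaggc
CXCL10: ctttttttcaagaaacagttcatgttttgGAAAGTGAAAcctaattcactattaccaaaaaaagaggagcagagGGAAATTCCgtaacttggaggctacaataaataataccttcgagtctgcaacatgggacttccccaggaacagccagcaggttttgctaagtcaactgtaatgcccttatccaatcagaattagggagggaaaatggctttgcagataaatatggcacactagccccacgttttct
CCL20: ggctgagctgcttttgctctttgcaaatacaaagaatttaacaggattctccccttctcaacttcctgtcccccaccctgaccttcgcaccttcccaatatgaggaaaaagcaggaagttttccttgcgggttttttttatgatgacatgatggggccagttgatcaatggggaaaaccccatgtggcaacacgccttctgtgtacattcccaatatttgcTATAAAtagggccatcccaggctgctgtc
A kappaB match stood in 6 of the 7 windows, against 1.87% of the 27305 RefSeq promoter windows of the same length. These shares hold for the letters searched alone. The window without a match, that of CCL20, was the only one of a CC gene, so CXC and CC genes cannot be compared. CXCL1, CXCL2, CXCL3, CXCL5 and CXCL8 all held the identical letters GGAATTTCC, which began 78, 77, 78, 90 and 91 bases before the start, and CXCL10 held their reverse complement GGAAATTCC, which began 176 bases before it. That exact word and its complement stood in 0.428% of all windows. An AP-1 match stood in the CXCL8 window alone of the 7 (6.6% of all windows), an ISRE match in the CXCL10 window alone (3.07%), and a TATA match in those of CXCL8 and CCL20 (7.17%). The kappaB letters searched were not found in the CCL20 window, and other spellings of the element were not searched in any window. The windows of CXCL1 and CXCL2 were identical at 67.9% of 274 aligned columns and those of CXCL1 and CXCL3 at 81.4% of 258, whereas CXCL5 and CXCL8 were identical at 42.8% of 278. A match of letters is a description and not a measured binding site.

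Across the transcriptome, 4352 of 14016 tested genes passed the threshold of an adjusted p of 0.05 in edgeR's quasi-likelihood test, with Benjamini-Hochberg adjustment over all tested genes, and the median log2 fold change was -0.01. Fold change followed transcript length, and the Spearman coefficient over genes, which are not independent replicates, was 0.456 (library 1) and 0.46 (library 2). Both coefficients rest on the same control library. For the difference between library 1 and library 2 the coefficient was 0.0307. Values after length correction, that is from a fit with the length trend taken out, are therefore given as well. KMT2D itself had 107 and 138 CPM (read counts per library total, with totals scaled by the TMM method) in the libraries labelled KMT2D shRNA, against 100.1 CPM in the control (log2 fold change 0.29, edgeR adjusted p = 0.227). After length correction KMT2D turned to -0.58 (edgeR adjusted p = 0.0142). KMT2D RNA was thus not lower without that correction, and the directions below go by the labels only. Library totals lay between 5123817 and 5559504 estimated counts. The prostate secretory genes KLK3 and KLK2 were listed in no library, and 7 of 7 markers of epithelial and PC-3 cells were detected in every library. Of these 7, the keratin genes KRT7, KRT8, KRT18 and KRT19 were called lower, 2 of the 7 markers after length correction, and EPCAM, CDH1 and VIM were not called. CDH1, the gene of E-cadherin, had 17.8 and 18.5 CPM in the libraries labelled KMT2D shRNA and 12.7 CPM in the control, and KRT18 had 196 and 200 CPM in the libraries labelled KMT2D shRNA and 364 CPM in the control. Of 10 leukocyte markers 4 were at 0 in every library, and the pan-leukocyte gene PTPRC had 7 and 11 counts in the libraries labelled KMT2D shRNA and 7 in the control. The summed level of the leukocyte markers was 70.7 and 78.6 CPM in the libraries labelled KMT2D shRNA and 185 CPM in the control, mostly from CD68 (45.9 and 55.8 CPM, against 149 CPM). Of 3 tested leukocyte markers 2 were called lower, CD68 (log2 fold change -1.56, edgeR adjusted p = 6e-10) and LYZ (-0.64, edgeR adjusted p = 0.0189), and PTPRC was not called. After length correction CD68 remained lower (-1.30, edgeR adjusted p = 3.45e-08) and the call of LYZ was lost (edgeR adjusted p = 0.333). The 7 fibroblast markers summed to 426 and 448 CPM in the libraries labelled KMT2D shRNA and 419 CPM in the control. Most of this was COL1A1 (373 and 385 CPM, against 397 CPM), which was not called, nor was COL3A1. PDGFRA was higher, with 39.0 and 47.1 CPM against 10.4 CPM (log2 fold change 2.05, edgeR adjusted p = 5.8e-09). COL1A2, DCN, LUM and PDGFRB were too rare to be tested. The 5 endothelial markers summed to 135 and 102 CPM in the libraries labelled KMT2D shRNA and 69.6 CPM in the control. VWF and CDH5 were listed in no library. KDR was higher, at 116 and 83.0 CPM against 48.7 CPM (log2 fold change 1.03, edgeR adjusted p = 6.13e-05). The call of KDR was lost with length and GC content both corrected (edgeR adjusted p = 0.0985). PECAM1 was not called, with 19.3 and 18.9 CPM against 20.3 CPM. The part of these markers in the chemokine results was not tested.

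Of the 10 chemokines the libraries labelled KMT2D shRNA had 6 at a lower level and 1 at a higher level, 2 did not pass the test, and 1 was too rare to be tested. CXCL8, CXCL2, CXCL10, CXCL16, CCL5 and CCL20 fell and CXCL5 rose. In such bulk libraries, fewer cells that express a gene and less of its RNA per cell cannot be told apart. In the same test 31.1% of all tested genes were called, 14.5% lower and 16.5% higher. CXCL10 and CCL20 reached the level the filter asks for, about 1.91 CPM, only in the control, so they could enter the test only by being higher there. After length correction CXCL8, CXCL10 and CCL20 remained lower, CXCL5 remained higher, CXCL1 became higher, and the calls of CXCL2, CXCL16 and CCL5 were lost. In that fit 19.3% of all tested genes were called, 9.26% lower and 10.1% higher. After correction for length and GC content together, CXCL8, CXCL10 and CCL20 were lower and CXCL5 was higher, where 10.4% of all genes were called, 5.06% lower and 5.34% higher. The median log2 fold change of the 9 tested chemokines was -0.69, or -0.48 after length correction, against 0.02 over all genes in that fit. Without CXCL10 and CCL20 the median of the other 7 was -0.69, or -0.30 after length correction. Of these 7, 4 were called lower and 1 higher without correction. After length correction CXCL8 alone of them was lower, while CXCL5 and CXCL1 were higher. With GC content corrected too, CXCL8 alone was lower and CXCL5 alone higher.

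**Figure D1:**
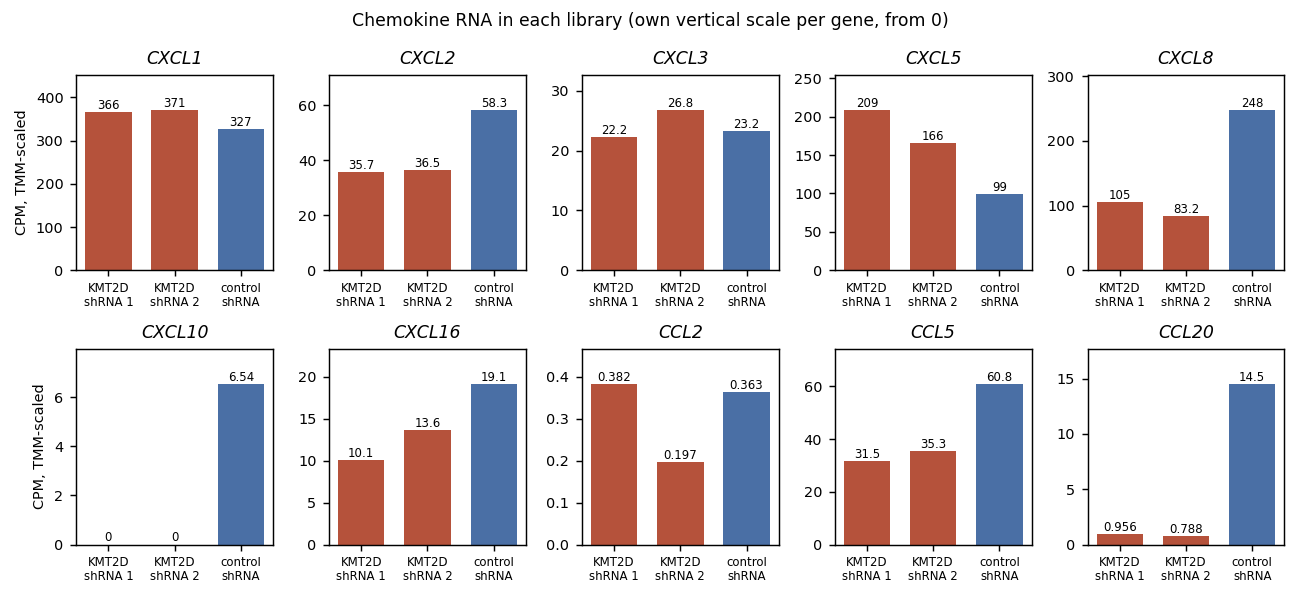
Level of each chemokine RNA in CPM (TMM-scaled, vertical axis, own scale per gene from 0) in the 2 libraries labelled KMT2D shRNA (red) and the control library (blue), 1 bar per library with its value. CXCL5 is higher in both labelled libraries (209 and 166 CPM, against 99.0 CPM), CXCL8 and CCL20 are lower, and CXCL10 has no count in either labelled library.

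The neutrophil chemokines made up most of the chemokine RNA and did not move together. Per length, CXCL1, first described as a melanoma growth factor, was the most abundant of the 10 in every library. It had a level of 319 and 316 FPKM (fragments per length of transcript and depth of library) in the libraries labelled KMT2D shRNA and 277 FPKM in the control. On the scale that compares libraries, CXCL1 had 366 and 371 CPM in the libraries labelled KMT2D shRNA and 327 CPM in the control. Both labelled libraries stood slightly above the control, with a log2 fold change of 0.17 (SE 0.17) that did not pass (edgeR adjusted p = 0.455). After length correction the log2 fold change of CXCL1 was 0.58 (SE 0.17, edgeR adjusted p = 0.0121), and with GC content corrected too it was 0.46 (edgeR adjusted p = 0.0708).

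CXCL8, the prototype neutrophil attractant and also an angiogenic factor, was lower in both labelled libraries. CXCL8 had 105 and 83.2 CPM in the libraries labelled KMT2D shRNA, against 248 CPM in the control, on 550, 422 and 1363 counts. Both labelled libraries lay far below the control, at ratios of 0.425 (95% counting interval 0.384 to 0.469) and 0.336 (0.300 to 0.375). Library 1 was itself above library 2 by a ratio of 1.26 (counting interval 1.11 to 1.44), so the labelled libraries differed beyond counting error. The log2 fold change of CXCL8 was -1.39 (SE 0.17, edgeR adjusted p = 8.25e-09), and -1.11 (SE 0.17, edgeR adjusted p = 1.46e-06) after length correction.

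CXCL5, made by epithelial cells and a ligand of CXCR2 like CXCL8, was the chemokine of the 10 that rose. CXCL5 had 209 and 166 CPM in the libraries labelled KMT2D shRNA, against 99.0 CPM in the control, on 1096, 840 and 545 counts. Its labelled libraries stood above the control at ratios of 2.12 (counting interval 1.91 to 2.35) and 1.67 (1.5 to 1.87), and library 1 was above library 2 by 1.27 (1.16 to 1.39). The log2 fold change of CXCL5 was 0.92 (SE 0.18, edgeR adjusted p = 0.00012), and 1.05 after length correction (SE 0.19, edgeR adjusted p = 2.23e-05). A ratio of 2 genes inside a library does not depend on library scaling, but it is not corrected for the trend with length. The transcripts of CXCL5, CXCL8 and CXCL1 differ in length (2475, 1718 and 1185 bases). CXCL5 had 1.99 counts for each count of CXCL8 in library 1 (counting interval 1.80 to 2.21) and 1.99 in library 2 (1.77 to 2.24), against 0.400 in the control (0.361 to 0.442). The labelled libraries were thus alike in this ratio although each gene differed between them, and CXCL8 outnumbered CXCL5 in the control alone. They were not alike with CXCL1 as the other gene. CXCL8 had 0.287 and 0.224 counts per count of CXCL1 in library 1 and library 2, against 0.757 in the control. CXCL5 had 0.572 and 0.446, against 0.303. In both ratios the counting intervals of library 1 and library 2 did not overlap.

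CXCL2 and CXCL3, close relatives of CXCL1 that were first described in macrophages, were less abundant. CXCL2 had 35.7 and 36.5 CPM in the libraries labelled KMT2D shRNA, against 58.3 CPM in the control. Both labelled libraries were lower, and they did not differ from each other beyond counting error (ratio 0.980, counting interval 0.796 to 1.21). The log2 fold change of CXCL2 was -0.69 (SE 0.19, edgeR adjusted p = 0.00378), but -0.30 (edgeR adjusted p = 0.275) after length correction. CXCL3 had 22.2 and 26.8 CPM in the libraries labelled KMT2D shRNA and 23.2 CPM in the control, so the control lay between the labelled libraries. Its log2 fold change was 0.07 (SE 0.22, edgeR adjusted p = 0.838). The transcripts of CXCL1 and CXCL2 are of similar length (1185 and 1234 bases), and inside a library CXCL2 had 0.0975 and 0.0981 counts per count of CXCL1 in the libraries labelled KMT2D shRNA, against 0.178 in the control. The counting intervals of that ratio, 0.0835 to 0.113 and 0.0839 to 0.114 against 0.158 to 0.201, did not overlap between the groups. CXCL1, CXCL2 and CXCL3 have near-identical stretches. CXCL2 shares 60 of its 1169 words of 50 bases with CXCL1 and 54 with CXCL3, so how the authors' counting divided their reads is uncertain. The deposited counts of all 3 genes are fractional. Those of CXCL5, CXCL16 and CCL5 are fractional too, whereas those of CXCL8, CXCL10, CCL2 and CCL20 are whole numbers.

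**Figure D2:**
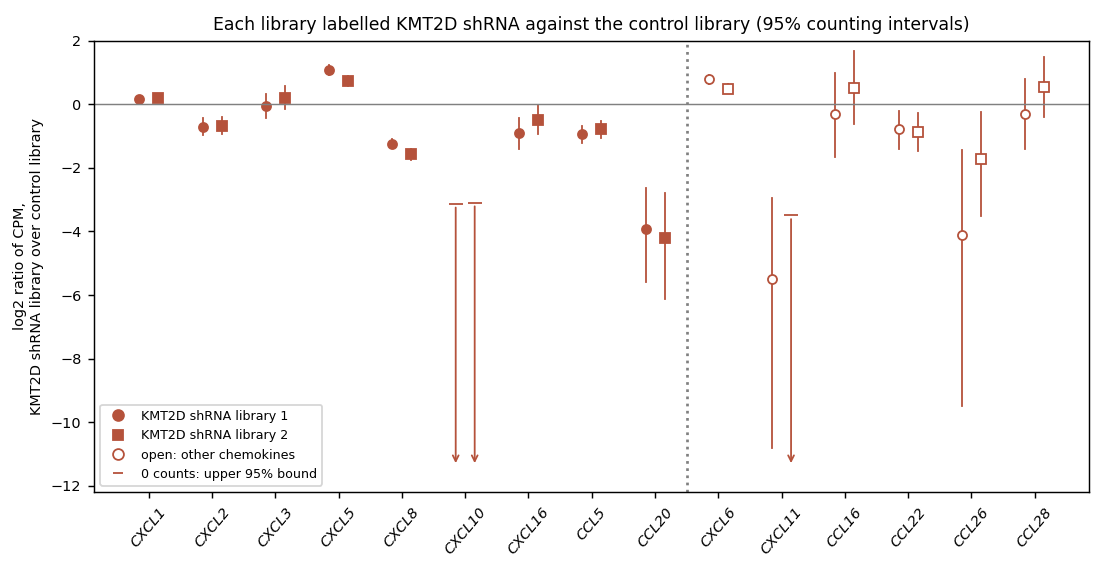
Ratio of each library labelled KMT2D shRNA (library 1 circles, library 2 squares) over the control library, as log2 of the CPM ratio (vertical axis), with 95% counting intervals, for the 9 tested chemokines (filled) and the 6 other tested chemokine genes (open). Arrows start at the upper bound where a library had 0 counts. CXCL5 and CXCL6 lie above 0 and CXCL8, CXCL10, CCL20 and CXCL11 below it in both libraries.

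CXCL10, the interferon-induced ligand of CXCR3, was detected in the control alone. CXCL10 had 0 and 0 counts in the libraries labelled KMT2D shRNA and 36 counts (6.54 CPM) in the control. The control level was 11.1 times the higher of the floors of 3 counts per labelled library (0.573 and 0.591 CPM), and the test passed (edgeR adjusted p = 8.57e-07). That factor leaves out the counting error of the control. The upper ends of the counting intervals of the CXCL10 ratio, which include this error, were 0.114 and 0.117. In the RefSeq table CXCL10 and CXCL11 overlap ART3, a gene of the ADP-ribosyltransferase family that none of the 3 libraries lists. CXCL16, the shed membrane chemokine, had 10.1 and 13.6 CPM in the libraries labelled KMT2D shRNA, against 19.1 CPM in the control. Both labelled libraries were lower, but library 2 came near the control (ratio 0.713, counting interval 0.518 to 0.975). CXCL16 passed narrowly (log2 fold change -0.69, SE 0.26, edgeR adjusted p = 0.0425), and the call was lost after length correction (-0.53, edgeR adjusted p = 0.156). It was also lost with library totals for scaling (edgeR adjusted p = 0.0938), without a filter on low counts (0.152) and at a mean of 5 CPM or more (0.0669). CXCL16 overlaps MED11, a Mediator subunit gene with 4.01 and 3.74 CPM in the libraries labelled KMT2D shRNA and 6.54 CPM in the control, and ZMYND15. The protocol names no step that keeps strand, so reads from overlapping genes could not be told apart.

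Of the CC chemokines CCL20 changed by the largest factor. CCL20, the ligand of CCR6, had 5 and 4 counts (0.956 and 0.788 CPM) in the libraries labelled KMT2D shRNA and 80 counts (14.5 CPM) in the control. Its labelled libraries stood at 0.0658 (counting interval 0.0208 to 0.160) and 0.0542 (0.0144 to 0.144) of the control. The log2 fold change of CCL20 was -4.02 (SE 0.46, edgeR adjusted p = 1.57e-09), and -3.52 (SE 0.47, edgeR adjusted p = 4.47e-08) after length correction. CCL5 was the most abundant CC chemokine, with 31.5 and 35.3 CPM in the libraries labelled KMT2D shRNA and 60.8 CPM in the control. Both labelled libraries were lower, at ratios of 0.518 (0.428 to 0.626) and 0.580 (0.481 to 0.697), and the log2 fold change was -0.87 (SE 0.19, edgeR adjusted p = 0.000377). After length correction CCL5 was at -0.48 and did not pass (edgeR adjusted p = 0.0691). CCL2, the monocyte attractant, had 2 and 1 counts in the libraries labelled KMT2D shRNA and 2 in the control. All 3 were under the floor of 3 counts, and no difference of CCL2 was detectable at this depth.

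**Figure D3:**
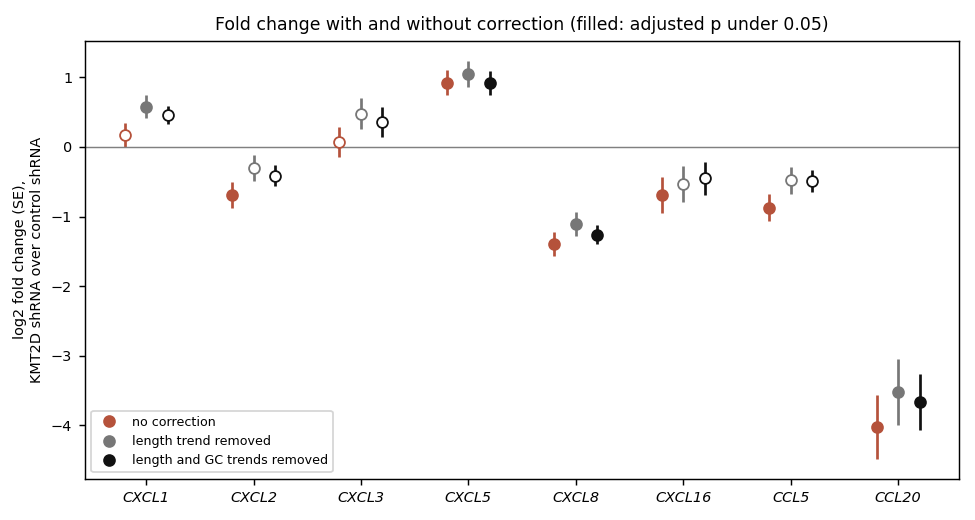
Log2 fold change of KMT2D shRNA over control shRNA (vertical axis, bars are SE) for 8 chemokines without correction (red), after length correction (grey) and with length and GC trends removed (black); filled points passed an adjusted p of 0.05 in edgeR. CXCL5, CXCL8 and CCL20 passed in all 3 fits, and CXCL2, CXCL16 and CCL5 without correction alone. CCL2 was not tested, and CXCL10 is left out because its fitted value depends on the prior count.

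Per length, the order of the chemokines in the control was CXCL1, CXCL8, CCL5, CXCL2, CXCL5, CXCL3, CCL20, CXCL16, CXCL10 and CCL2. In both libraries labelled KMT2D shRNA it was CXCL1, CXCL5, CXCL8, CXCL2, CCL5, CXCL3, CXCL16, CCL20, CCL2 and CXCL10, the same in library 1 and library 2. There the values of neighbours did not overlap between genes, although CXCL5 (85.8 and 66.2 FPKM) and CXCL8 (62.5 and 48.2 FPKM) were separated by less than the spread of either. CXCL2 and CCL5 (26.2 and 28.6 FPKM), and CCL5 and CXCL3 (19.6 and 23.1 FPKM), likewise lay closer than the spread of CCL5 or CXCL3. CCL2 and CXCL10, last in order, were both under the floor of 3 counts. CCL5 and CXCL2 were close neighbours in the control (49.3 and 47.3 FPKM), which has no replicate to judge that by. CXCL1 held 58.1% and 60.9% of the summed FPKM of the 10 genes in the libraries labelled KMT2D shRNA, against 45.6% in the control. CXCL8 held 11.4% and 9.31% in the libraries labelled KMT2D shRNA, against 23.6% in the control, and CXCL5 held 15.6% and 12.8%, against 6.49%. The 5 neutrophil chemokines together held 94.1% and 93.1% in the libraries labelled KMT2D shRNA and 86.7% in the control, and the 3 CC chemokines 5.10% and 5.75%, against 11.1%. All 10 together added up to 782 and 733 CPM in the libraries labelled KMT2D shRNA and 857 CPM in the control.

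**Figure D4:**
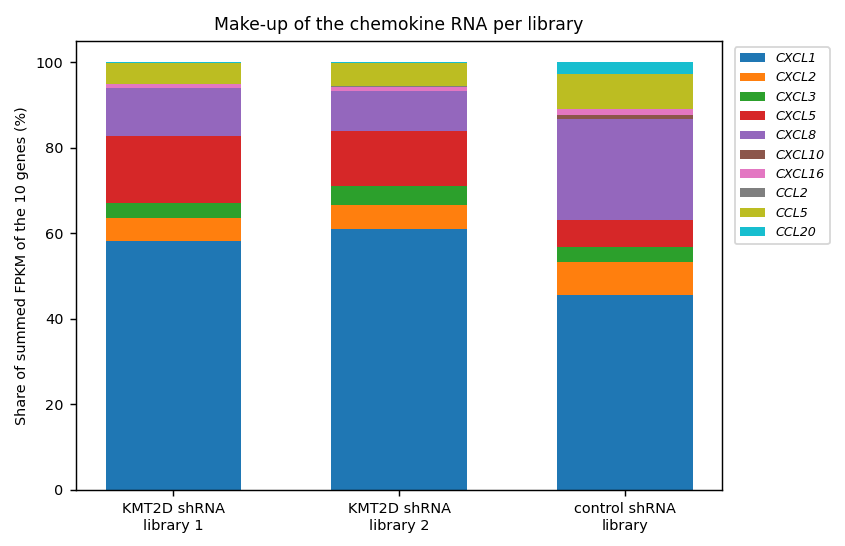
Share of each chemokine in the summed FPKM of the 10 genes (vertical axis, percent), 1 stacked bar per library. CXCL1 holds the largest share in every bar, and CXCL5 holds more than CXCL8 in the libraries labelled KMT2D shRNA, the reverse of the control.

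Genes of the same chromosomal cluster were called in both directions. On human chromosome 4 the RefSeq table gives the coding genes in the order CXCL8, CXCL6, PF4V1, CXCL1, PF4, PPBP, CXCL5, CXCL3 and CXCL2. Their log2 fold changes in this order were -1.39 for CXCL8, 0.65 for CXCL6, 0.17 for CXCL1, 0.92 for CXCL5, 0.07 for CXCL3 and -0.69 for CXCL2, while PF4V1, PF4 and PPBP, the platelet chemokines, had at most 2 counts in any library. CXCL6, the closest relative of CXCL5 and a CXCR2 ligand as well, had 219.8 and 181 CPM in the libraries labelled KMT2D shRNA, against 128 CPM in the control. Both labelled libraries were higher, with an edgeR adjusted p of 0.0046 for CXCL6, and a log2 fold change of 0.94 after length correction (edgeR adjusted p = 8.92e-05). CXCL5 and CXCL6 shared 0 words of 50 bases, and shorter or inexact matches were not compared. The CXCL6 window also held GGAATTTCC, beginning 89 bases before the start. Farther along the chromosome CXCL9, ART3, CXCL10 and CXCL11 follow each other. CXCL11, an interferon-induced CXCR3 ligand like CXCL10, had 1 and 0 counts in the libraries labelled KMT2D shRNA and 47 counts (8.54 CPM) in the control. Taking the labelled libraries together, CXCL11 stood at a ratio of 0.0114 (counting interval 0.000282 to 0.0665; edgeR adjusted p = 9.37e-08). CXCL9, the third of these ligands, had 0 and 1 counts in the libraries labelled KMT2D shRNA and 0 in the control.

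Of 34 further chemokine genes 15 were listed in some library and 6 were tested, of which 1 rose (CXCL6) and 3 fell, where 16.5% of all tested genes were called higher and 14.5% lower. Besides CXCL11 these were CCL22, a ligand of CCR4, at -0.82 (edgeR adjusted p = 0.0406), and CCL26, a ligand of CCR3, at -2.44 (edgeR adjusted p = 0.025). The calls of CCL22 and CCL26 were lost after length correction (edgeR adjusted p = 0.0669 and 0.124). CCL16 (0.15, edgeR adjusted p = 0.89) and CCL28 (0.17, edgeR adjusted p = 0.842) did not pass. CXCL11 and CCL26 passed the filter on low counts through the control alone, so they could only be lower. The median log2 fold change of the other 4 was 0.16.

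Receptors for these chemokines were scarce. Of 23 receptor genes 13 were listed and 8 tested, of which 3 fell and 0 rose, against 14.5% of all genes called lower. Their summed level was 30.2 and 36.9 CPM in the libraries labelled KMT2D shRNA and 53.6 CPM in the control, and CXCR1 was listed in no library. CCR1, a receptor of CCL5, had 0 and 0 counts in the libraries labelled KMT2D shRNA and 27 counts in the control (edgeR adjusted p = 1.91e-05). The control level of CCR1 was 8.30 times the higher floor. The upper ends of the counting intervals of its ratio were 0.154 and 0.159. CCRL2, an atypical receptor, fell, at -1.29 on the log2 scale (edgeR adjusted p = 0.0108), and so did CXCR5, the receptor of CXCL13, at -2.14 (edgeR adjusted p = 0.0438), and both calls were lost after length correction (edgeR adjusted p = 0.074 and 0.0607). CCR1, CXCR5 and CXCR2 passed the filter on low counts through the control alone, so they could only be lower. Of the other 5 receptors 1 was called lower, and their median log2 fold change was -0.32. CXCR2, the receptor of the neutrophil chemokines, and CCR6, the receptor of CCL20, were named after their values were seen. CXCR2 had 8 and 9 counts in the libraries labelled KMT2D shRNA and 16 in the control, and CCR6 had 21 and 35 counts in the libraries labelled KMT2D shRNA and 37 in the control, and neither passed (edgeR adjusted p = 0.388 and 0.607).

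Among 22 cytokines and receptors that induce chemokines, 16 were tested, of which 6 fell and 0 rose, where 14.5% of all tested genes were called lower and 16.5% higher. IL1R1, not called, passed the filter on low counts through the control alone, and the median log2 fold change of the other 15 was -0.30. IL6, an inflammatory cytokine, had 3.25 and 6.31 CPM in the libraries labelled KMT2D shRNA and 49.6 CPM in the control (log2 fold change -3.37, edgeR adjusted p = 3.6e-15). IL1A, the alarm cytokine interleukin 1 alpha, fell, with a log2 fold change of -2.23 (edgeR adjusted p = 0.00011), as did TLR3, the sensor of double-stranded RNA, at -2.44 (edgeR adjusted p = 0.000244). MYD88, the adaptor of interleukin 1 and Toll-like receptors, was at -1.51 (edgeR adjusted p = 7.74e-09). TNFRSF1A and IFNGR2, receptor chains for tumour necrosis factor and interferon gamma, fell, at -0.45 and -0.48 (edgeR adjusted p = 0.0475 and 0.0258), calls lost after length correction (edgeR adjusted p = 0.287 and 0.216). IL1B and IFNB1 were named after their values were seen. IL1B, interleukin 1 beta, was the most abundant gene of the list in the control but did not pass, with 798 and 584 CPM in the libraries labelled KMT2D shRNA and 629 CPM in the control (edgeR adjusted p = 0.582). IFNB1, interferon beta, had 0 and 0 counts in the libraries labelled KMT2D shRNA and 9 counts in the control, too few to be tested.

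All 19 genes of the NF-kB core list were tested, of which 7 fell and 0 rose (median log2 fold change -0.31), where 31.1% of all tested genes were called and 14.5% were called lower. The inhibitor gene NFKBIE had 13.4 and 17.1 CPM in the libraries labelled KMT2D shRNA and 30.7 CPM in the control (edgeR adjusted p = 0.000482). The inhibitors NFKBIB and NFKBIA fell as well, at log2 fold changes of -0.86 and -0.55 (edgeR adjusted p = 0.00166 and 0.0116). The NF-kB subunit gene RELB was at -0.81 (edgeR adjusted p = 0.00582), the nuclear cofactor BCL3 at -0.76 (edgeR adjusted p = 0.00283) and TNIP1, a partner of the deubiquitinase A20, at -0.72 (edgeR adjusted p = 0.000477). After length correction 5 of the 19 were lower, against 9.26% of all genes. NFKBIA, BCL3 and IKBKG were no longer among them (edgeR adjusted p = 0.361, 0.0675 and 0.213), and TNFAIP3, which encodes A20, was (edgeR adjusted p = 0.0155). After correction for length and GC content together 2 of the 19 were lower, TNIP1 and TNFAIP3 (edgeR adjusted p = 0.0422 and 0.0476), against 5.06% of all genes, and the calls of NFKBIE, RELB and NFKBIB were lost (edgeR adjusted p = 0.051, 0.186 and 0.207). RELA, the main activating subunit, was also looked at after its values were seen and had 167 and 175 CPM in the libraries labelled KMT2D shRNA and 201 CPM in the control (edgeR adjusted p = 0.303).

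Of 8 STAT and IRF genes, which encode transcription factors of interferon signalling and related pathways, 6 fell and 0 rose (median log2 fold change -1.71), where 14.5% of all tested genes were called lower. IRF7 was at -3.43 on the log2 scale, STAT2 at -1.86, IRF1 at -1.75, IRF9 at -1.68 and IRF3 at -0.81 among those named here, each with an edgeR adjusted p of 0.00022 or less. The same 6 were lower after length correction, where 9.26% of all genes were. With GC content corrected too 5 were lower, and the call of IRF3 was lost (edgeR adjusted p = 0.138). IRF7, a master regulator of type I interferon genes, had 41.1 and 56.0 CPM in the libraries labelled KMT2D shRNA and 523 CPM in the control. These genes thus stood lower in the same libraries as CXCL10 and CXCL11, and whether they had a part in it was not tested.

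Genes that act on chemokine RNA or protein after transcription were taken from lists of decay regulators and of proteases. Of 10 tested regulators of chemokine RNA decay and stability 2 rose and 1 fell (median log2 fold change -0.02), where 31.1% of all tested genes were called, 16.5% higher and 14.5% lower. KHSRP, a decay factor for RNA with AU-rich elements, rose by 0.43 (edgeR adjusted p = 0.0442) and MAPK14, the kinase p38 alpha, by 0.63 (edgeR adjusted p = 0.00658), while ARID5A, which stabilises cytokine RNA, was lower, at -1.19 (edgeR adjusted p = 0.00327). After length correction ARID5A alone of these 3 passed (edgeR adjusted p = 0.0188), and none of the 10 passed with GC content corrected too (edgeR adjusted p = 0.0981 for ARID5A). Of 7 tested proteases that process chemokines 2 rose and 0 fell, against the same 16.5% and 14.5%. MMP9, not called, passed the filter on low counts through the control alone, and the median log2 fold change of the other 6 was -0.05. ADAM10, the main sheddase of CXCL16, had 51.4 and 67.4 CPM in the libraries labelled KMT2D shRNA and 41.6 CPM in the control (log2 fold change 0.51, edgeR adjusted p = 0.041), and ANPEP, an aminopeptidase, had 410.4 and 662 CPM in the libraries labelled KMT2D shRNA and 364 CPM in the control (0.56, edgeR adjusted p = 0.0197). Neither passed after length correction (edgeR adjusted p = 0.184 for ADAM10 and 0.0928 for ANPEP).

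**Figure D5:**
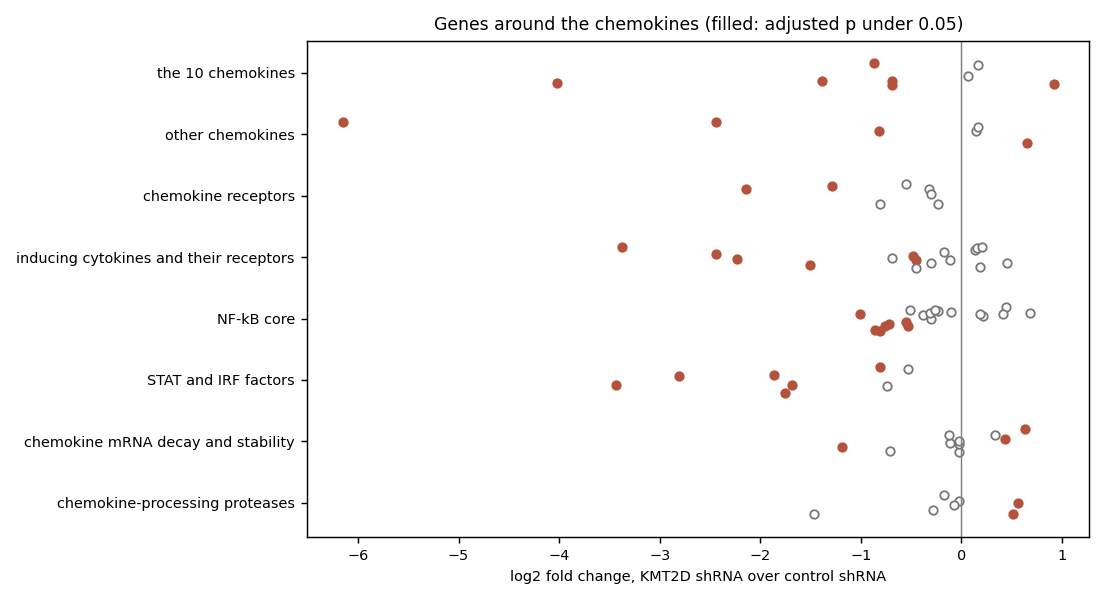
Log2 fold change of KMT2D shRNA over control shRNA (horizontal axis) of each tested gene, by list (rows), without genes at 0 counts in both libraries labelled KMT2D shRNA; vertical spread within a row has no meaning, and filled points passed an adjusted p of 0.05 in edgeR. Filled points of the receptor, inducer, NF-kB and STAT or IRF rows lie below 0, and those of the chemokine rows lie on both sides.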

How the data were processed

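Per the labels' protocols, polyadenylated RNA of 3 PC-3 libraries was fragmented, reverse transcribed and sequenced (BGISEQ-500). The build hg19 and the aligners HISAT and Bowtie2 are named in the submitters' processing notes. The sources used here do not give their roles, their versions or the counter. The authors deposited, per the file headers, an expected count (estimated reads, not normalized), a FPKM value and a length per gene. A gene missing from a table was taken as 0. Names came from RefSeq (GRCh38.p14), by Entrez identifier for 18214 genes and by transcript for 28, with 89 unmatched.

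Expected counts were rounded and tested with edgeR 4.0.16 in R 4.3.3: default filter by group, TMM scaling, quasi-likelihood F test on group, Benjamini-Hochberg adjustment over all 14016 tested genes. The control has no replicate, so the spread came from the 2 labelled libraries, pooled across genes (1 residual and 45.7 prior degrees of freedom, coefficient of variation 10.9%). Each SE is the log2 fold change over the root of its F value. Ratios carry exact 95% binomial intervals of the counts; intervals and the floor of 3 counts cover counting error only, since reads without molecular identifiers are not independent molecules. Length and GC trends were removed as smooth fits (mgcv 1.9.3) entered as offsets. On simulated data (13799 genes tested, 200 changed), a 4-fold change was found in 97% of cases, a 2-fold change in 59.7% and a 1.5-fold change in 11.9%, with 4 false calls. The changed genes were all above 5 CPM, no length trend was put in, and the control was drawn at the fitted dispersion. These rates therefore need not hold for the real libraries, where fold change followed length and the control has no replicate. DESeq2 1.42.0 and limma 3.58.1, the second on log2(FPKM + 1) or log2(FPKM + 0.1), were alternatives.

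The chemokines and the other gene lists were chosen with earlier results of these data known. Named were all 10 chemokines, KMT2D, every other tested chemokine, and in each list the members past the threshold (at most the 6 with the largest change), except that some genes are not reported here. Protein sequences were not used here.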

Additional observations from a re-analysis of the deposited data

How the results depend on the processing

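No paired analysis was possible because the control has 1 library and no replicate number. Without a filter on low counts 1897 genes were called, after length correction 2709, with length and GC trends removed 1440, with DESeq2 1178 and 0 by limma on FPKM at 3 settings. An unadjusted p under 0.05 was reached by 4215 to 4568 genes in limma and by 5711 in edgeR. Among the 10 chemokines, 2 were called higher after length correction. Called lower were 3 after length correction, 3 with length and GC trends removed, and 1 (CXCL8) with DESeq2, which gave CXCL10, CXCL16, CCL2 and CCL20 no adjusted p. By limma on FPKM 0 were called higher and 0 lower, with 5 or 6 at an unadjusted p under 0.05. CXCL5 and CXCL8 were called in all 7 alternatives that test counts, CXCL2 and CCL5 in 4 and CXCL1 in 1. CCL20 was called in the 6 that gave it an adjusted p, CXCL10 in the 5 that did, and CXCL16 in 1 of 6. No tested chemokine changed sign under any alternative that gives a test, and the log2 fold change of CXCL8 ran from -1.40 to -1.11 and that of CXCL5 from 0.91 to 1.05 over them. KMT2D turned to -0.58 (edgeR adjusted p = 0.0142) after length correction and to -0.43 (edgeR adjusted p = 0.124) with both trends removed. Leaving out a labelled library leaves 1 against 1 and no test; without library 1 and without library 2 CXCL8 was then at -1.57 and -1.23 and CXCL5 at 0.74 and 1.08. The fitted value of CXCL10 rests on the prior count, moving from -4.19 to -6.13 for each labelled library when the prior count of 2 was replaced by 0.5. The cause of these differences between tools was not tested. At this depth CCL2 was below what could be compared.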
